A study of Mus musculus with 6 samples.

Results

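Transcripts of 10 genes of fibroblast growth factor (FGF) signalling through the kinase ERK were examined in Nestin-expressing cells of the neonatal mouse cerebellum, with and without irradiation. They were taken by gene symbol from a table of 19630 genes, and all 10 were found and passed the filter on low values. The 10 are the receptor genes *Fgfr1* and *Fgfr2*, the ETS factor genes *Etv1*, *Etv4* and *Etv5*, and the feedback inhibitor genes *Spry1*, *Spry2*, *Spry4*, *Spred1* and *Dusp6*. Both groups were Swiss webster mice of genotype Nes-CFP/+, which carry a cyan fluorescent reporter of Nestin expression. The 3 control libraries came from non-irradiated mice at postnatal day 5, and the 3 irradiated libraries from mice of the same age irradiated at postnatal day 1. Reporter-positive cells were sorted from papain-dissociated cerebella, so each library is a mixture of all cell types in which the reporter is on. The labels give neither a radiation dose nor the number of animals behind a library. Replicates may therefore differ for technical reasons alone, and every p-value below refers to the spread among these 6 samples.

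FGF ligands bind receptor tyrosine kinases at the cell surface, and the signal passes through RAS, RAF and MEK to ERK. ERK signalling induces the PEA3 group of ETS factors (*Etv1*, *Etv4*, *Etv5*) and also its own brakes: Sprouty and Spred proteins act on the RAS-RAF step, and the phosphatase encoded by *Dusp6* inactivates ERK. Levels of these transcripts are therefore widely used as a readout of the pathway. In the mouse cerebellum the pathway is known for its part in the formation of Bergmann glia, the radial astroglia on which granule neurons migrate, and *Etv4* and *Etv5* are expressed in these glia.

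Values below are scaled counts, that is reads per gene divided by the DESeq size factor of the library, from libraries of 30986269 to 37067530 gene-assigned reads, and each member had at least 792 reads in each library. Differences are given as log2 fold changes of scaled counts to which 1 was added, with irradiated minus control as the direction, tested with limma over 16674 genes. Of these genes 9, or 0.0540%, were called at an adjusted p below 0.05, and 25, or 0.150%, when the replicate number was added as a block. *Nes* itself was high in every library, from 8389 to 10049 in controls and from 7461 to 13492 after irradiation. *Cdkn1a*, the p53-induced cell cycle inhibitor gene, was at 235 to 402 in controls and 1470 to 1843 after irradiation, and was among the genes called (limma adjusted p = 0.00372).

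None of the 10 genes was called, with or without the block. The fit placed 7 lower in the irradiated group and 3 slightly higher, and the median log2 fold change was -0.19, against -0.0028 over all genes tested. Of all 16674 genes tested, 8437 were lower and 8237 higher in the fit. Before adjustment, 1 of the 10 (*Etv4*) had a limma p below 0.05 without the block, against 4.50% of all genes, and 3 (*Etv4*, *Etv5* and *Fgfr1*) with it, against 8.29%. In none did the irradiated libraries all lie below the controls, which was the case for 4.01% of all genes. Within same-numbered replicates, 5 of the 10 (*Etv4*, *Etv5*, *Spry1*, *Spry2* and *Fgfr1*) were lower after irradiation in all 3 pairs, as were 14.4% of all genes, and no member was higher in all 3, against 15.4% of all genes.

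**Figure D1:**
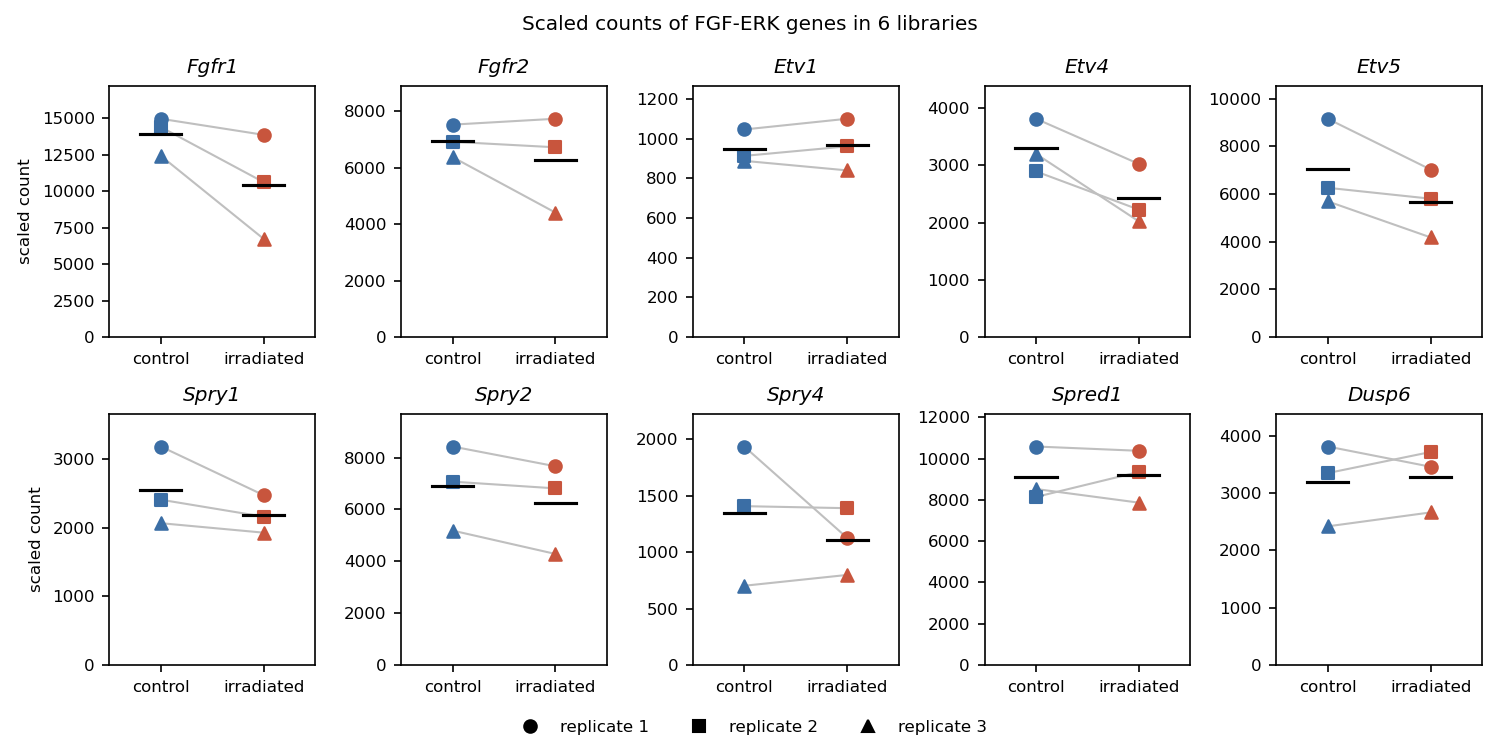
Scaled read count (y axis, from 0) of each of the 10 genes in the 3 control and 3 irradiated libraries. Marker shapes and grey lines join libraries of the same replicate number, and black bars are group means. *Etv4* runs from 2896 to 3816 in controls and from 2023 to 3027 after irradiation, so that the groups overlap in 1 library of each.

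Levels also differed by library in a way that many members shared. Control replicate 1 was the highest of the 6 libraries for 8 members, as it was for 18.7% of all genes tested. Irradiated replicate 3 was the lowest for 8 members, as it was for 23.9% of all genes. Summed over 16 Bergmann glial and astroglial marker genes, scaled counts were 896012, 721970 and 775298 in the controls and 827285, 699585 and 534349 after irradiation. Control replicate 1 and irradiated replicate 3 were thus also the top and the bottom of the astroglial signal, and the part of this in the members' values was not tested beyond the division described further on. This order was not particular to astroglia: summed stem and radial glial markers had the same top and bottom, at 301487 and 188563. Summed cell cycle and Purkinje cell genes had these libraries the other way round. In a bulk sample, fewer cells of a type and less RNA per cell cannot be told apart.

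Of the receptors, *Fgfr1* encodes the FGF receptor with the higher scaled count here. It stood at 14961, 14394 and 12423 in the controls and at 13860, 10617 and 6733 after irradiation. The controls lay close together, whereas the irradiated libraries spread 2.06-fold and overlapped them in replicate 1. The mean after irradiation was 0.747 of the control mean (log2 fold change -0.48, SE 0.22, limma adjusted p = 0.9999). With the block the limma adjusted p was 0.409. Within pairs the differences were -0.11, -0.44 and -0.88, all downward, the last far larger than the first. Without irradiated replicate 3 the log2 fold change was -0.19, and no other single library moved it as close to 0.

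*Fgfr2*, the gene of the second receptor, stood at 7525, 6918 and 6377 in controls and 7733, 6723 and 4411 after irradiation. Irradiated replicate 1 lay above the control range and irradiated replicate 3 below it. The log2 fold change was -0.18 (SE 0.19, limma adjusted p = 0.9999), with an unadjusted 95% interval of 0.660 to 1.18 on the fold scale. It turned to 0.06 without irradiated replicate 3.

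Among the PEA3 factors *Etv4* showed the most regular difference. It was at 3816, 2896 and 3203 in the controls and at 3027, 2228 and 2023 after irradiation. Every irradiated library was below its same-numbered control, by log2 differences of -0.33, -0.38 and -0.66. Only irradiated replicate 1 reached into the control range, above control replicate 2. The mean ratio was 0.734 (log2 fold change -0.46, SE 0.17, limma unadjusted p = 0.0208, adjusted p = 0.924; with the block adjusted p = 0.204). The log2 fold change stayed between -0.63 and -0.34 when any 1 library was left out.

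*Etv5*, the close relative with the higher scaled count, was at 9153, 6260 and 5693 in controls and 7026, 5803 and 4182 after irradiation. Control replicate 1 stood well above the other controls, and irradiated replicate 1 was the second highest of the 6. The log2 fold change was -0.31 (SE 0.22, limma adjusted p = 0.9999; with the block adjusted p = 0.406), and it was -0.11 without control replicate 1 and also -0.11 without irradiated replicate 3. Pair differences were -0.38, -0.11 and -0.45.

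*Etv1*, which in the cerebellum is known from maturing granule neurons, was at 1046, 913 and 888 in controls and 1100, 961 and 840 after irradiation. The groups overlapped almost completely. The fitted ratio lay within an unadjusted 95% interval of 0.817 to 1.26, and the log2 fold change of 0.02 (SE 0.14) changed sign when irradiated replicate 1, or either of control replicates 2 and 3, was dropped.

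The Sprouty genes encode membrane-associated inhibitors of receptor tyrosine kinase signalling. *Spry1* was at 3179, 2405 and 2063 in controls and 2471, 2157 and 1925 after irradiation. Each irradiated library was below its partner, by log2 differences of -0.36, -0.16 and -0.10, and the fitted value of -0.21 had a standard error of 0.17 (limma adjusted p = 0.9999, or 0.607 with the block). Without control replicate 1 this value was -0.04, without irradiated replicate 3 it was -0.12, and without control replicate 3 it was -0.35. *Spry2* was at 8427, 7071 and 5184 in controls and 7665, 6812 and 4282 after irradiation. For *Spry2* the replicate number separated the libraries more than the treatment did: controls spread 1.63-fold, while the pair differences were only -0.14, -0.05 and -0.28 on the log2 scale. The standard error of its log2 fold change of -0.16 was 0.23 without the block and 0.083 with it (limma adjusted p = 0.9999 and 0.697), and its sign turned without control replicate 1 or irradiated replicate 3.

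*Spry4* varied most among the controls, at 1937, 1408 and 702. After irradiation it was at 1127, 1390 and 798, inside the control range in every library. Control replicate 1 was 2.76 times control replicate 3, and the pair differences of -0.78, -0.02 and 0.19 did not share a direction. The unadjusted 95% interval of the fitted ratio was 0.513 to 1.47, a range that holds both a fall and a rise. The fitted sign turned without control replicate 1 or irradiated replicate 3.

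*Spred1* encodes a Sprouty-related protein that brings neurofibromin to RAS. It was at 10587, 8142 and 8527 in controls and 10379, 9355 and 7866 after irradiation, and the groups overlapped (log2 fold change 0.02, SE 0.14, unadjusted 95% interval of the ratio 0.816 to 1.26). *Dusp6*, the gene of the ERK phosphatase, was at 3811, 3347 and 2418 in controls and 3458, 3715 and 2661 after irradiation. Its log2 fold change was 0.05 (SE 0.18), its interval 0.778 to 1.38, and its limma adjusted p 0.9999. Replicate 3 had the lowest *Dusp6* value in both groups. The sign of *Spred1* turned when irradiated replicate 1 or either of control replicates 2 and 3 was left out, and that of *Dusp6* without control replicate 3 or irradiated replicate 2.

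**Figure D2:**
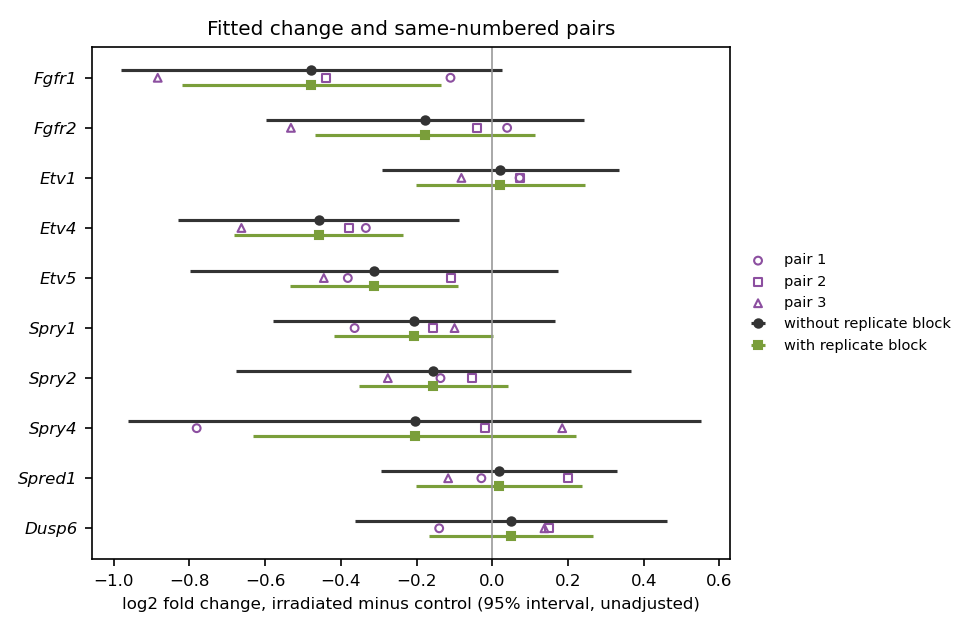
Fitted log2 fold change, irradiated minus control (x axis), of the 10 genes, with unadjusted 95% intervals from limma without (dark circles) and with (green squares) the replicate block, and the difference within each same-numbered pair (open symbols). The points of *Etv4* lie between -0.66 and -0.33, while those of *Dusp6*, *Spred1* and *Etv1* fall on both sides of 0.

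Capicua is a transcriptional repressor that ERK signalling relieves, and *Etv* genes, *Dusp6* and Sprouty genes are among its known targets. It binds octamers of the forms TGAATGAA, TGAATGGA, TCAATGAA and TCAATGGA. Promoter windows of 300 bases from RefSeq (250 before to 50 after a transcript start, GRCm38.p6) were at hand for 7 of the 10 genes, in 9 windows. On either strand an octamer lay in 2 of the 9 windows, against 3.84% of 32851 windows of the same length, and the shorter run TGAATG in 2 of 9, against 12.7%. The run TGAATG is also the start of the first 2 octamers. Only the 3 windows with a match are shown, and those without one, such as *Spry1* and the other *Etv5* window, are not. The letters searched for were chosen after the windows had been seen. The shares above therefore cannot test whether the members hold more matches than other genes. Capitals mark the matches, and each window is written 5′ to 3′ along the gene's strand. The first is *Etv5* at its inner start (chr16:22438319-22438618, minus strand), the second *Spry2* (chr14:105896770-105897069, minus strand) and the third *Dusp6* (chr10:99262981-99263280, plus strand).
Etv5: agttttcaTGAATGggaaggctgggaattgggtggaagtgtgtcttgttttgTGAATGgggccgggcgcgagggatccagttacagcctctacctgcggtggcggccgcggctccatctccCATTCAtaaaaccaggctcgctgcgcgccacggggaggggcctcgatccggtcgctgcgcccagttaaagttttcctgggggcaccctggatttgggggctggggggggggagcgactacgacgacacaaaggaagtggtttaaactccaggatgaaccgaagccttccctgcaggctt
Spry2: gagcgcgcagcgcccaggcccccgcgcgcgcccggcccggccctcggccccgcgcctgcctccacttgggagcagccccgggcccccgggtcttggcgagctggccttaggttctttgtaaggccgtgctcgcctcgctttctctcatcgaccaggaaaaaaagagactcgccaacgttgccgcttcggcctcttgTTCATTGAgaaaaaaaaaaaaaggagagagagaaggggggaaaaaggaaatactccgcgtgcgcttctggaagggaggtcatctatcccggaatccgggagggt
Dusp6: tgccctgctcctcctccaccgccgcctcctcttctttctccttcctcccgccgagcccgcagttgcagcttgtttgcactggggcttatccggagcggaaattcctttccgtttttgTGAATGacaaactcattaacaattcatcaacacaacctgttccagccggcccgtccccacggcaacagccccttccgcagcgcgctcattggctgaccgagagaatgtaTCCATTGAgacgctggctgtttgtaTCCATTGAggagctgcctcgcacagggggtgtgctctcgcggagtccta

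The *Etv5* window holds TGAATG 3 times and no octamer. The *Dusp6* window holds TGAATG once and TCAATGGA on the opposite strand at 2 places, and the *Spry2* window holds TCAATGAA once on the opposite strand. A match describes letters only, and binding was not measured. *Cic*, the capicua gene, was at 6391, 5279 and 5549 in controls and 4948, 6519 and 5172 in irradiated libraries (log2 fold change -0.06, SE 0.13). *Atxn1*, whose protein binds capicua, was lower in all 3 pairs, at 976 to 1107 against 751 to 862 (log2 fold change -0.34, limma adjusted p = 0.903). In the list of capicua, its partners and other ETS factors, 12 of 14 had a lower and 2 a higher fitted level, none was called, and the median was -0.05. *Gabpa*, an ETS factor gene, stood at 4234 to 4468 and 3967 to 4690. *Ets2* and *Fli1* had log2 fold changes of 0.16 and -0.25.

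Per length the members spanned a wide range. Expressed as RPKM, reads per kilobase of merged exons scaled to the gene-assigned reads of the library, *Spry2* was the highest, at 104 ± 23.3 (SD, n = 3) in controls, followed by *Etv5* at 53.7 ± 13.0, *Fgfr1* at 44.3 ± 4.10 and *Spred1* at 42.0 ± 5.06. *Etv4* (33.4 ± 3.90), *Dusp6* (31.96 ± 6.82) and *Spry1* (27.5 ± 5.64) came next, then *Fgfr2* (21.1 ± 1.504), *Spry4* (8.88 ± 3.95) and *Etv1* (2.24 ± 0.16). In the controls *Spry2* lay above *Etv5* in every library, and *Spry4* lay below *Fgfr2* and above *Etv1* in every library. *Etv5*, *Fgfr1* and *Spred1* overlapped, as did *Etv4*, *Dusp6* and *Spry1*. After irradiation the same measure gave *Spry2* 93.6 ± 25.1, *Etv5* 43.2 ± 10.3, *Spred1* 42.4 ± 5.18, *Fgfr1* 32.9 ± 10.8, *Dusp6* 32.7 ± 5.04 and *Etv4* 24.4 ± 5.04. These levels depend on the length used: with the longest annotated transcript the control mean was 86.7 for *Fgfr1*, 49.2 for *Fgfr2* and 4.53 for *Etv1*, and *Fgfr1* then ranked next to *Spry2*. Lengths were taken from GENCODE release M21. For *Spry2*, *Fgfr1*, *Fgfr2*, *Dusp6*, *Spry4* and *Etv1* the deposited gene ID carries another version than in that release. Reads of these genes may thus have been counted over other exons than those measured here.

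In GRCm38 coordinates of GENCODE release M21, *Etv4* lies on chromosome 11 from 101769742 to 101785371 on the minus strand, *Etv5* on chromosome 16 from 22381309 to 22439719 on the minus strand and *Etv1*, on the plus strand, at 38779380 to 38870484 of chromosome 12. *Fgfr1* occupies 25513654 to 25575718 of chromosome 8, plus strand. All 10 are protein-coding. *Fgfr1*, *Spry1* and *Spry4* each share bases with an annotated gene of the other strand, and the annotated *Fgfr2* gene reaches over many neighbours on both strands. Overlap was judged on whole gene spans, introns included, and not on exons. Whether counting used strand, and how reads shared by genes were treated, is not given in the sources used here. Reads may therefore be added to these values or missing from them.

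Because astroglial markers moved with the same libraries, each member was also set against them within its own library, as the log2 of its scaled count over the summed astroglial count. On this measure 3 members stood apart between the groups, as did 10.6% of all genes tested. *Etv4* was lower in every irradiated library, at -8.09, -8.29 and -8.05 against -7.88, -7.96 and -7.92, a difference of -0.23. *Etv1* was higher in every irradiated library, at -9.56, -9.51 and -9.31 against -9.74, -9.63 and -9.77, a difference of 0.25. *Spred1* was also higher throughout, at -6.32, -6.22 and -6.09 against -6.40, -6.47 and -6.51, a difference of 0.25. For each of the 3 the exact two-sided permutation p was 0.1, the smallest that 3 against 3 allows, and the Benjamini-Hochberg value over the 10 members was 0.333. With that smallest p no member could have passed 0.05, whatever its values. *Etv5* differed by -0.08 (exact permutation p = 0.7), *Spry1*, *Spry2*, *Spry4* and *Fgfr2* by 0.03 to 0.08, *Dusp6* by 0.28 and *Fgfr1* by -0.25 (exact permutation p = 0.3 for both). Without control replicate 3 the difference of *Dusp6* was 0.11, and without irradiated replicate 3 that of *Fgfr1* was -0.13. All genes of a library share the same divisor, so this division adds the same amount to the log2 group difference of every gene. The fitted difference of *Etv5* was thus -0.31 before and -0.08 after it, and that of *Etv4* -0.46 and -0.23. For *Etv1* and for *Spred1* it was 0.02 before and 0.25 after. The shift comes from the lower astroglial sum and is not particular to any member. Against *Slc1a3* and *Fabp7* alone, the groups overlapped for *Etv4* (exact permutation p = 0.2) with a difference of -0.22, while *Fgfr1* stood apart at -0.24 (exact permutation p = 0.1), so that 3 members again did so. The share of all genes that stood apart with this divisor was not computed.

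**Figure D3:**
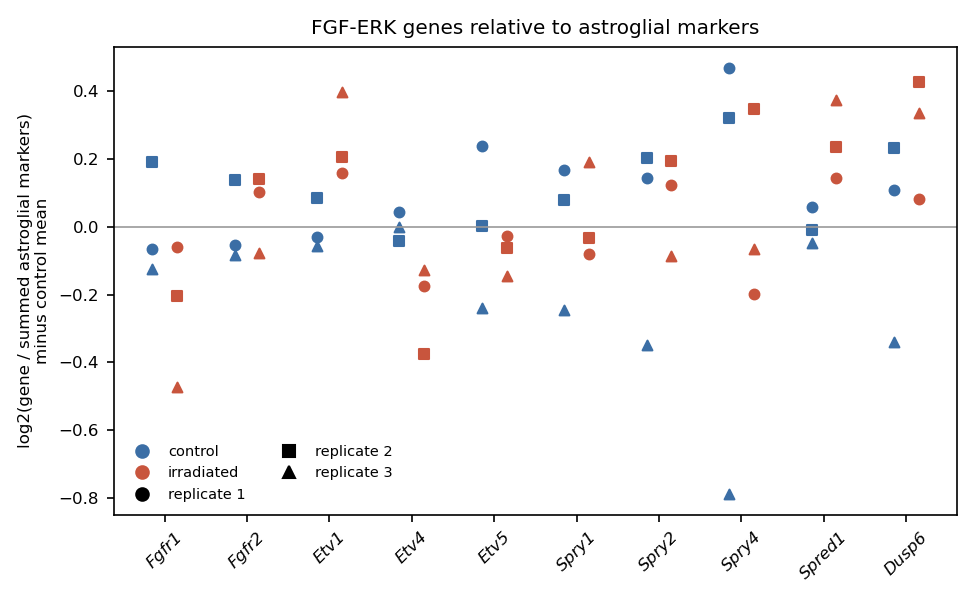
Log2 of each gene's scaled count over the summed count of 16 astroglial markers in the same library (y axis), with the control mean of the gene set to 0. Blue and red points are control and irradiated libraries, and shapes give the replicate number. *Etv4* lies lower and *Etv1* and *Spred1* lie higher in all 3 irradiated libraries, while the other 7 genes overlap.

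Upstream of the members, FGF ligand genes were mostly low. Of 20 genes listed by family name, 14 were tested, 9 were higher and 5 lower in the fit, and none was called. Among the 14 are *Fgf11*, *Fgf12*, *Fgf13* and *Fgf14*, which encode intracellular factors, so the counts and the median are not of receptor ligands alone. The list median was 0.19, and with single libraries left out it ranged from -0.00095 (without irradiated replicate 3) to 0.26. *Fgf8*, the ligand of the isthmic organizer at the midbrain-hindbrain boundary, was singled out after its values were seen. It had 4, 0 and 8 reads in the controls and 17, 33 and 68 after irradiation. Every irradiated library was thus above every control, at a scaled ratio of summed reads of 10.6 with an exact Clopper-Pearson 95% interval of 5.83 to 21.03, which covers counting error only. It was not called (limma adjusted p = 0.340; with the block 0.164). *Fgf9*, known in mouse as a granule neuron signal to Bergmann glia, was at 50.4, 63.0 and 112 in controls and 101, 139 and 228 in the irradiated libraries (log2 fold change 1.05, SE 0.37, limma adjusted p = 0.895; with the block 0.122). It was higher in all 3 pairs, and the groups overlapped.

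*Fgf1*, a ligand of all FGF receptors, was at 620, 690 and 679 in controls and 614, 407 and 273 in irradiated libraries, without overlap (log2 fold change -0.69, SE 0.25, limma adjusted p = 0.963). *Fgf15*, a ligand of the hindbrain, ranged from 73.4 to 145 in controls and from 51.4 to 384 after irradiation. *Fgf12* and *Fgf13*, which encode intracellular factors that do not signal through FGF receptors, were the highest of the list, at 1050 to 1280 against 789 to 978 and at 690 to 815 against 643 to 1050.

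**Figure D4:**
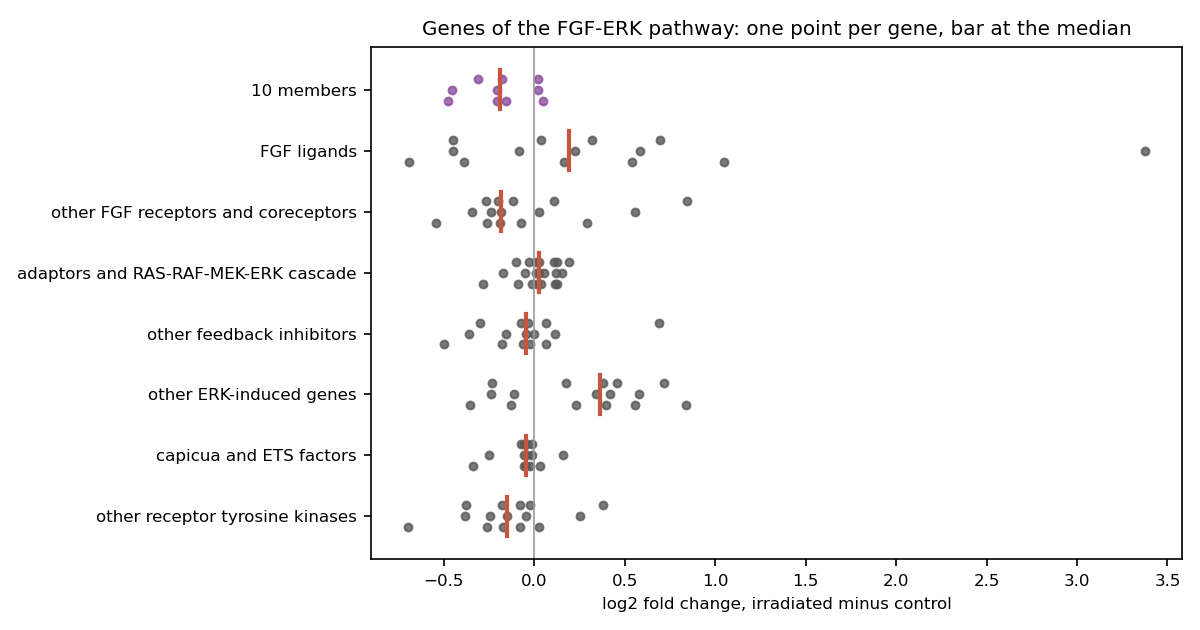
Log2 fold change, irradiated minus control (x axis), with 1 point per tested gene in the 10 members and in 7 lists of other pathway genes, and a red bar at each median. The point at 3.38 is *Fgf8*, and the list of other ERK-induced genes has its median at 0.36 against -0.19 for the members.

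Of 15 tested genes of other FGF receptors and coreceptors, 5 were higher and 10 lower in the fit, with a median of -0.19 and none called. *Fgfr4* was at 154, 127 and 199 in controls and 174, 299 and 435 after irradiation (log2 fold change 0.84, limma adjusted p = 0.983). *Cnpy1*, whose relative in zebrafish promotes FGF signalling at the midbrain-hindbrain boundary, was at 8210, 11118 and 8772 in controls and 6670, 6944 and 5605 after irradiation. Its groups did not overlap (log2 fold change -0.54, SE 0.14, limma adjusted p = 0.496; with the block 0.167). *Flrt3*, a membrane protein gene that binds FGF receptors, was at 256 to 547 and 340 to 819. The heparan sulfate proteoglycan genes *Sdc3* and *Gpc1* were the highest of the list, at 33661 to 48878 against 32721 to 43010 and at 8139 to 10090 against 8591 to 9855.

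Among the 7 lists of other pathway genes the kinase cascade had the median closest to 0. Of 21 adaptor and cascade genes 14 were higher and 7 lower in the fit, with a median of 0.02 and none called, also at an unadjusted p. *Ptpn11*, the gene of the phosphatase SHP2 that links FGF receptors to RAS, was at 7375 to 8428 and 7960 to 9369 (log2 fold change 0.19). The adaptor gene *Frs3* and the MEK scaffold gene *Lamtor3* had log2 fold changes of -0.29 and -0.17.

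Of other feedback inhibitors more had a lower than a higher fitted level, but the median was near 0. Of 15 tested, 4 were higher and 11 lower in the fit, with a median of -0.05 and none called. With the block, the median was 0.003 without pair 1 and 0.03 without pair 3. *Il17rd*, encoding the FGF inhibitor Sef, was at 5402, 4711 and 4437 in controls and 4197, 4035 and 2349 in the irradiated libraries, without overlap (log2 fold change -0.50, SE 0.21, limma adjusted p = 0.9999; with the block 0.356). *Spred3* was at 1205 to 1623 and 981 to 1137, and *Lrig1*, encoding an inhibitor of receptor tyrosine kinases, at 14279 to 17147 and 11110 to 14134, each also without overlap. *Dusp5*, the gene of a nuclear ERK phosphatase, was higher in all 3 pairs, at 66.1 to 140 against 122 to 189 (log2 fold change 0.69, limma adjusted p = 0.9999). *Nf1* was at 4884 to 5780 and 4334 to 5657.

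The list of other ERK-induced genes, which is not confined to early response genes, went mostly the other way in the fit. Of 16 tested, 11 were higher and 5 lower, with a median of 0.36 (0.22 without control replicate 1), and none was called. The genes that the naming rule gives here are all among the 11. *Hmga2*, a chromatin protein gene named after its values were seen, was lower in all 3 pairs, at 394, 362 and 281 in controls and 335, 252 and 227 in irradiated libraries (log2 fold change -0.36). *Ccnd1*, the cyclin D1 gene, was at 9215, 6106 and 6487 in controls and 11322, 13596 and 13568 in the irradiated libraries, without overlap (log2 fold change 0.84, SE 0.16, limma adjusted p = 0.189; with the block 0.184). *Junb*, an AP-1 subunit gene, was at 956 to 1555 and 1610 to 1875, also without overlap. The zinc finger genes *Egr1* and *Egr2* were at 11239 to 20297 against 18229 to 23667 and at 243 to 550 against 402 to 747, higher in all 3 pairs with overlapping groups. *Fos* was at 6159 to 13387 and 12005 to 13897. The difference between this list and the members was not tested.

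Other receptor tyrosine kinase genes that signal to ERK had 3 of 15 higher and 12 lower in the fit, a median of -0.15 and none called. *Pdgfrb*, a pericyte receptor gene, was at 550 to 769 in controls and 339 to 461 after irradiation, without overlap (log2 fold change -0.70, limma adjusted p = 0.542). *Erbb2* was at 1750, 1211 and 1006 in controls and 1300, 1053 and 697 after irradiation, and *Erbb3* was at 42.3 to 63.5 over the 6 libraries. The highest, *Pdgfra* and *Ntrk2*, were at 10532 to 17053 against 10293 to 18446 and at 12609 to 16274 against 12021 to 14240.

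Cell type markers moved beside the members, and their part in the members' values was not tested. In the astroglial list 14 of 16 genes had a lower fitted level (median -0.23), with *Slc1a3* at 198642 to 257637 and 144794 to 241389, *Sparcl1* at 156555 to 194310 and 119044 to 171428, and *Gpr37l1* lower without overlap. The other 2 astroglial genes had a higher fitted level. Before adjustment, 1 higher and 3 lower genes of this list had a limma p below 0.05. Stem and radial glial genes were lower in 10 of 11 (median -0.05, *Vim* and *Tnc* highest). Granule cell progenitor genes were higher in 8 of 13 (median 0.03), with *Zic1* and *Pax6* highest and *Sfrp1* at a log2 fold change of 1.20. Cell cycle genes were higher in 11 of 12 (median 0.20), with summed counts of 97914 to 107555 in controls and 107337 to 128351 after irradiation. GABAergic interneuron precursor genes were lower in 12 of 12 (median -0.46), among them *Slc6a5* at -1.44 and *Kirrel2* at -0.10. Of these lists only the interneuron list held a gene called with the block, 1 in number, and none was called without it. These medians rested in part on single libraries: the astroglial one was -0.06 without irradiated replicate 3 and -0.39 without irradiated replicate 1, and the interneuron one -0.73, -0.22 and -0.26 without control replicates 1, 2 and 3. Without irradiated replicate 3 the medians of stem, granule progenitor and cell cycle genes were 0.07, -0.02 and 0.10.

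Of the markers of other cell types, oligodendrocyte lineage genes (median -0.01, *Olig1* and *Pdgfra* highest) summed to 34365 to 50355 in controls and 36865 to 52673 after irradiation, and *Mag* ranged from 14.7 to 127 over the 6 libraries. Microglial genes summed to 1519 to 3686 and 2251 to 3682 (median 0.30, *Csf1r* and *Cx3cr1* highest). Endothelial and pericyte genes summed to 5335 to 5955 and 3633 to 5317 (median -0.30, *Cldn5* and *Rgs5* highest), and meningeal and fibroblast genes to 5252 to 5939 and 4667 to 5853 (median -0.18, *Col1a2* and *Col3a1* highest). Purkinje cell genes, with *Itpr1* and *Car8* highest and *Calb1* at 0.70, summed to 4680 to 6325 and 5906 to 6948 (median 0.43). No tested gene of any marker list was at 0 in a library, and none was called in these lists. With single libraries left out, the microglial median ranged from -0.03 (without control replicate 1) to 0.49 (without control replicate 2). The oligodendrocyte one ranged from -0.17 (without irradiated replicate 3) to 0.22 (without irradiated replicate 1), the endothelial one reached -0.09 and the meningeal one -0.06 (both without irradiated replicate 1), and the Purkinje one ranged from 0.26 to 0.82 (without irradiated replicates 3 and 2).

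The genes with the most similar pattern over the 6 libraries were named by the root mean square difference of centred log2 values among 13899 other genes with a mean of at least 50. Nearest to *Etv4* were *Lcat*, *Khdrbs2*, *AW047730* and *1700086L19Rik*, at 0.050 to 0.065. *Etv5* was nearest to *Selenbp1*, *Msx2*, *Erbb2* and *Ncs1*, at 0.050 to 0.073, and among the members to *Spry1* and *Spry2*, at 0.14 each. *Dusp6* had *Fbxl19*, *Inppl1*, *Zdhhc12* and *Ccdc61* as its nearest, at 0.037 to 0.054. *Spry4*, with its wide spread, had none closer than *Trpm4* at 0.15, followed by *Spata18*, *Grin3a* and *Il11ra1*, and among the members was nearest to *Spry2* at 0.27. With 6 libraries and this many genes, close matches of pattern are a description of these libraries only.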

How the data were processed

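Poly(A)-selected RNA of 6 sorted samples was sequenced. The deposited table holds a signal per gene and library: per the labels and the values, read counts that the authors divided by a DESeq size factor, with 1 added. HTSeq, DESeq and build mm10 are named in the submitters' processing notes, with no version or role. The aligner is not given in the sources used here. After subtracting the 1, 100% of values were whole multiples of 1 read within 0.001 reads, so depth is known. In 25 rows a symbol turned into a date was restored through the gene ID.

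limma-trend (limma 3.58.1, R 4.3.3) was run on log2(scaled count + 1) in 16674 genes with a mean of at least 10, with Benjamini-Hochberg adjustment over all of them, two-sided, called below 0.05. The added 1 makes fold changes of weakly expressed genes too small. Count-based tests on recovered reads were planned and not run, so all tests use the deposited scaled values. The fit was tested on simulated data with changes larger than those of any member and without differences shared by replicate number. That test therefore does not show how well changes as small as the members' would be found. Alternatives were the replicate block, pseudocounts of 0.5 and 10, other filters and scalings (TMM, total reads), and leaving out libraries. Control and irradiated libraries share replicate numbers, and deviations from group means correlated by 0.305, 0.151 and 0.451 across genes between same-numbered libraries and by -0.342 to 0.0503 otherwise. The numbers were therefore treated as pairs in the replicate block and in the differences within pairs, on the evidence of the data and not of the labels. The main limma fit, its standard errors and intervals, and the exact permutation tests do not use the pairing. Exact permutation tests used scipy 1.17.1.

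Members and lists were chosen with earlier results of these data known. Besides the members, *Nes* and *Cdkn1a*, the text names by rule up to 5 genes per pathway list (largest change at a mean of at least 50, highest mean), up to 3 per marker list and the 4 nearest in pattern. Some genes that the rule names are not reported here. *Fgf8* and *Hmga2* were named after their values were seen.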

Additional observations from a re-analysis of the deposited data

How the results depend on the processing

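No member was called under 15 of 16 alternatives to the limma fit, which include leaving out each library in turn. With the replicate block and both libraries of number 1 left out, an alternative chosen after seeing the data that leaves 1 residual degree of freedom, 2 members (*Etv4* and *Fgfr1*, limma adjusted p = 0.042 and 0.037) and 336 genes were called. All genes called numbered 25 with the block, 1 with the block without pair 3, and 1 to 29 without single libraries, the highest without irradiated replicate 1. The fit placed 7 members lower, and 4 to 10 without single libraries, with 4 when irradiated replicate 3 was left out. *Etv4*, *Etv5*, *Spry1* and *Fgfr1* kept their sign throughout. Without single libraries the log2 fold change ranged from -0.076 to 0.12 for *Etv1*, from -0.35 to 0.096 for *Spry2*, from -0.62 to 0.12 for *Spry4*, from -0.073 to 0.13 for *Spred1*, from -0.14 to 0.19 for *Dusp6* and from -0.35 to 0.058 for *Fgfr2*. With the block and a pair left out it turned to -0.0039 and -0.0046 for *Etv1* (pairs 1 and 2), 0.083 for *Spry4* (pair 1), and -0.073 for *Spred1* and -0.0011 for *Dusp6* (pair 2). The replicate block changed no call of a member. Relative to astroglial markers, 3 to 5 members stood apart without single libraries (5 without irradiated replicate 1). Groups of fewer libraries stand apart more easily, and the share of all genes that did so was not computed for these settings. The difference ranged from -0.20 to 0.039 for *Etv5*, -0.098 to 0.11 for *Spry1*, -0.097 to 0.18 for *Spry2* and -0.37 to 0.26 for *Spry4*. These turned without control replicate 1 (*Etv5*), control replicate 3 (*Spry1*, *Spry2*, *Spry4*), irradiated replicate 3 (*Spry1*) or irradiated replicate 2 (*Spry4*). The cause of these turns was not tested. edgeR and DESeq2, planned on recovered reads, were not run. With 3 libraries a group, unadjusted 95% intervals span 0.51 to 1.47-fold for *Spry4* and 0.82 to 1.26-fold for *Etv1*.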
